A study of Mus musculus with 12 samples.

Results

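Circular RNAs (circRNAs) of membrane traffic genes were read in 4 mouse cell lines. The set was chosen by gene name: genes whose symbol begins with Vps, Snx, Rab or Sec and a digit, with Cog and a digit, or with Tbc1d, Exoc or Trappc. The rule left out Vps45, which matches these names, and circRNAs assigned to more than 1 host gene. The rule took 110 of the 4455 single host genes in the deposited tables, with 379 circRNAs. Reads were found for 105 of these hosts and 357 of the circRNAs. The other 5 (Sec16a, Sec22c, Tbc1d15, Trappc13 and Vps26a) were listed with 0 reads. Names do not follow function throughout: Vps72 encodes a chromatin protein, and Rab10os is an antisense gene.

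Membrane traffic moves cargo between the endoplasmic reticulum, the Golgi, endosomes, lysosomes and the cell surface. Rab GTPases mark each membrane and recruit effectors, and TBC domain proteins switch them off. Sec proteins make a coat and the translocation channel of the endoplasmic reticulum. The TRAPP, COG and exocyst complexes and some Vps complexes tether vesicles to their targets. Sorting nexins shape endosomal tubules and pick the cargo that is sent back. A circRNA arises when the end of an exon is joined back to the start of the same or an earlier exon of the transcript. The join, the back-spliced junction, is what the counted reads cross, so a read is evidence for the ring and not for the linear mRNA.

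The mammary pair was 4T1, a breast cancer line, and Eph4-ev, of breast epithelium. The melanocyte pair was the melanoma line B16F10 and the melanocyte line Melan-a. Each line had 3 libraries of RNase R treated total RNA, and the labels name no other treatment. The series title names tumour-specific circRNAs, and the comparisons here set 4T1 against Eph4-ev and B16F10 against Melan-a. Each lineage holds 1 line of each kind, so whatever else separates the lines cannot be told apart from tumour state. Nothing in the labels says that replicates came from separate cultures, so p-values measure the spread between these libraries. In bulk RNA, fewer cells with a ring and fewer copies per cell cannot be told apart.

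Sequencing gave 15572 to 44625 junction reads in the 4T1 libraries, 50648 to 56649 in Eph4-ev, 16697 to 20011 in B16F10 and 25072 to 33557 in Melan-a. The deepest 4T1 library, replicate 3, stands apart from the other two, and results that rest on it are given without it as well. As a check of the labels, 5 of 16 epithelial marker genes (Cdh1, Epcam, Ocln, Esrp1 and Grhl2) had circRNA reads in the mammary table, with summed levels of 1349 to 1804 RPM (reads scaled to a common library total) in 4T1 and 1481 to 1836 in Eph4-ev. Of 15 melanocyte marker genes, 10 had reads in the melanocyte table (10978 to 12843 RPM in B16F10, 5684 to 9655 in Melan-a), and Mitf alone in the mammary table (0 RPM in 4T1, 0 to 88.3 in Eph4-ev). Of the epithelial genes, Esrp1 alone had reads in the melanocyte table (0 RPM in B16F10, 0 to 39.9 in Melan-a). The 12 immune marker genes had 0 reads throughout. Of 14 fibroblast and mesenchymal marker genes, Fn1 and Zeb1 had reads in the mammary table, with 0 in every 4T1 library and a summed level of 118 to 177 RPM in Eph4-ev. Vim and Zeb2 had reads in the melanocyte table, with 99.9 to 120 RPM in B16F10 and 0 to 359 in Melan-a. What part such a difference between the lines has in the results was not tested.

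The rings that the comparisons turn on are shown first by their junctions, since the join is what distinguishes a ring from the mRNA and from other rings of the same gene. Each line gives 30 bases, 5′ to 3′ in the sense of the gene: in lower case the last 15 bases of the ring's last exon, and in capitals the first 15 bases of its first exon, which follow directly after back-splicing. Coordinates are mm10 (GRCm38), and exon numbers and sequences are those of GENCODE M21.
Tbc1d16 exons 9 to 10, chr11:119151028-119154075, minus strand: tgggcccactaccagGAGGATCCTGTTGAA
Tbc1d16 exons 2 to 3, chr11:119208771-119210740, minus strand: ggagagcgagggcagGTCCTGATAAGCCCT
Rab3gap2 exons 25 to 26, chr1:185266901-185267279, plus strand: aacaaagacccggagGTGGTATTGCAGACA
Tbc1d1 exon 2, chr5:64173388-64173896, plus strand: gacgatcaaacaaaaGATTCTGCCCTCAGA
Snx12 exons 2 to 4, chrX:101213774-101215578, minus strand: tacgtccctgggaagACAAACCTACCCATC
Vps50 exons 3 to 9, chr6:3516622-3524175, plus strand: ctacagctgtataagGAGGAATTCAGGGAG
Vps50 exons 13 to 16, chr6:3545510-3555466, plus strand: caagaaccaccatagCATGTGACACCAGAC
Vps50 exons 13 to 21, chr6:3545510-3578915, plus strand: ggtcggaatgattcaCATGTGACACCAGAC
Folds below are log2 values ± SE from the fitted model, and levels are RPM ± SD over 3 libraries. Both Vps50 rings that begin with exon 13 carry the same capitals and differ only on the lower-case side, where exon 16 or exon 21 closes the ring. The rings of Tbc1d1 exon 2 and of Tbc1d16 exons 2 to 3 start in the 5′ UTR and hold the start codon of their gene, while the other 6 lie within the coding sequence.

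Membrane traffic hosts took a small and even share of all junction reads. The share was 1.93 ± 0.168% in 4T1, 2.06 ± 0.0796% in Eph4-ev, 1.63 ± 0.123% for B16F10 and 1.75 ± 0.143% for Melan-a (SD, n = 3 each). Shares of the mammary pair overlapped, as did those of the melanocyte pair. The split between name families was less even. Vps genes took 0.180 to 0.258% of reads in the 4T1 libraries and 0.353 to 0.399% in Eph4-ev, and Exoc genes 0.0789 to 0.108% and 0.146 to 0.184%, with the 4T1 libraries below every Eph4-ev library in both families. Tbc1d genes went the other way, at 0.321 to 0.524% in 4T1 and 0.272 to 0.296% in Eph4-ev. So did Cog genes, at 0.0193 to 0.0807% and 0.00706 to 0.0144%, and the ranges of the Snx, Rab, Sec and Trappc families overlapped. These sums include hosts that are tested on their own below. Vps50 alone had 401 ± 189 RPM in 4T1 and 1584 ± 465 in Eph4-ev, Tbc1d1 1216 ± 139 and 473 ± 139, and Tbc1d16 562 ± 114 and 0. These family shares are a description and were not tested, and the stacked plot of shares by family gives them for each library.

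**Figure D1:**
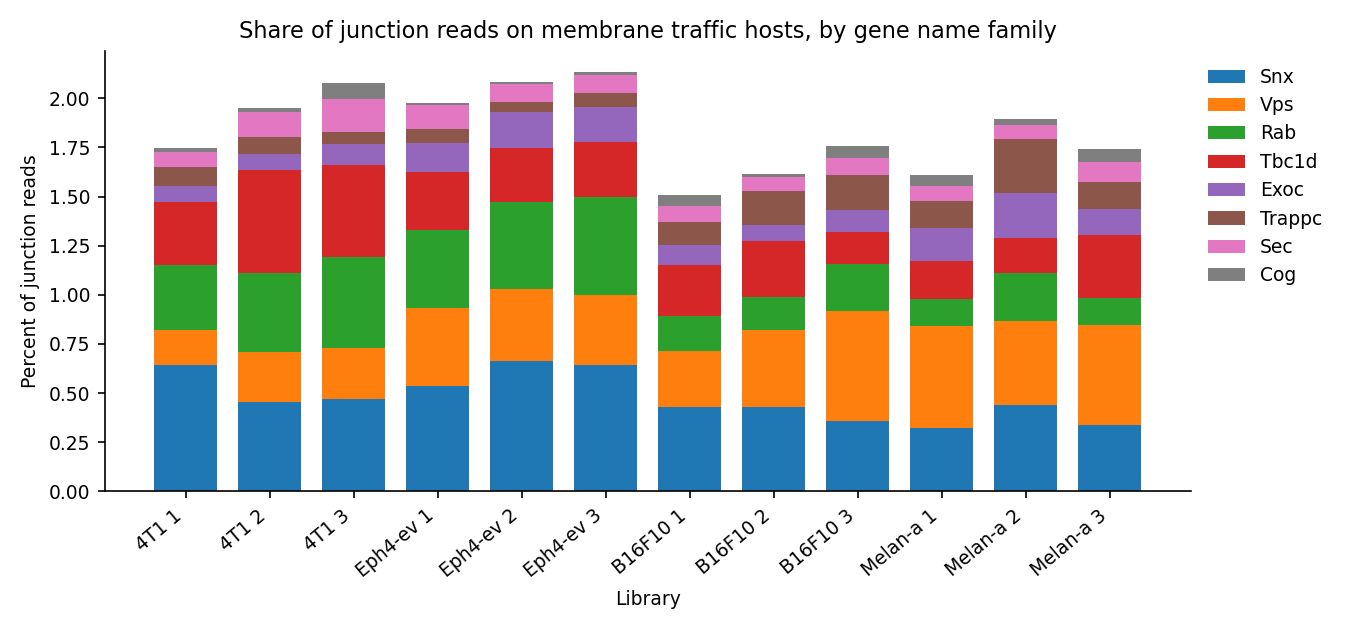
Percent of a library's junction reads (y axis) that fell on membrane traffic hosts, stacked by gene name family, for the 12 libraries (x axis). Vps genes, in orange, take less of each 4T1 library (0.180 to 0.258%) than of each Eph4-ev library (0.353 to 0.399%). Vps50, part of this sum, had 401 ± 189 RPM in 4T1 and 1584 ± 465 in Eph4-ev.

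The most read members differed between the lines. In 4T1 they were Snx5, a sorting nexin with a membrane-bending BAR domain (1750 ± 496 RPM), Tbc1d1, a Rab GTPase-activating protein of glucose transporter traffic (1216 ± 139), Rab3gap2 (1176 ± 251), Rab2a (1015 ± 152) and Tbc1d14 (931 ± 696). In Eph4-ev they were Vps50, a subunit of the endosome-associated recycling complex EARP (1584 ± 465 RPM), Snx12 (1534 ± 492), Snx9 (1142 ± 188), Vps13b (1013 ± 167) and Snx27 (996 ± 197; SD, n = 3 throughout). The melanocyte pair shared most of its leading members. In B16F10 these were Vps50 (1297 ± 694 RPM), Vps13b, a lipid transfer protein (1174 ± 488), Trappc9 (1052 ± 399), Snx5 (1010 ± 64.6) and Tbc1d14 (768 ± 307). In Melan-a they were Trappc9 (1512 ± 446 RPM), Vps13b (1323 ± 89.4), Snx5 (1223 ± 680), Vps50 (1174 ± 604) and Exoc4 (818 ± 659). Within every line, each of these 5 differed from the next by less than the sum of their SDs, so the order is not resolved. A host's level is a sum over its rings and does not scale with gene length, but it grows with the number of rings. RPM was scaled in each table separately, which limits comparison across lineages.

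A 4T1 library held 89.7 ± 12.9 member circRNAs with a read and an Eph4-ev library 147 ± 8.14 (SD, n = 3). Thinned to 15572 reads each, the means were 83.7 ± 4.51 and 105 ± 4.04. Over all circRNAs the thinned libraries held 3021 to 3170 in 4T1 and 3508 to 3724 in Eph4-ev, so members made up 2.49 to 2.90% and 2.88 to 2.94% of them, and the number over all circRNAs was lower in 4T1 too. For B16F10 the mean was 112 ± 10.7 and for Melan-a 108 ± 17.3 (SD, n = 3), and 110 and 95.3 after thinning to 16697 reads. Over all circRNAs these thinned libraries held 3557 to 3779 in B16F10 and 3013 to 3481 in Melan-a. Members made up 2.95 to 3.12% and 2.82 to 3.11% of them. Both lineages held 171 of the member rings with reads, which is 64.3% of the 266 in the mammary table and 65.3% of the 262 in the melanocyte table. Over all single-host circRNAs the shares in common were 58.2% and 62.3%.

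In 4T1 against Eph4-ev, 95 member hosts had reads, and 40 had enough to be tested (edgeR quasi-likelihood test, called at an adjusted p under 0.05). Of these, 4 were higher in 4T1 (Tbc1d16, Rab3gap2, Snx5 and Tbc1d1) and 2 were lower (Vps50 and Snx12). Over all 1515 hosts tested, 6.86% were called higher and 10.6% lower, and whether the members differ from these shares was not tested. DESeq2 called 3 higher and 1 lower. The median log2 fold (4T1 minus Eph4-ev) of the 40 was -0.13, beside -0.09 over all hosts. Negative folds were 23 of the 40 (57.5%, beside 52.9% over all hosts). When libraries were scaled by total reads alone, which moved the median of all hosts to 0.04 and the members' to 0.01, the calls were again 4 and 2. The plot of the members among all hosts shows where the called ones lie.

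**Figure D2:**
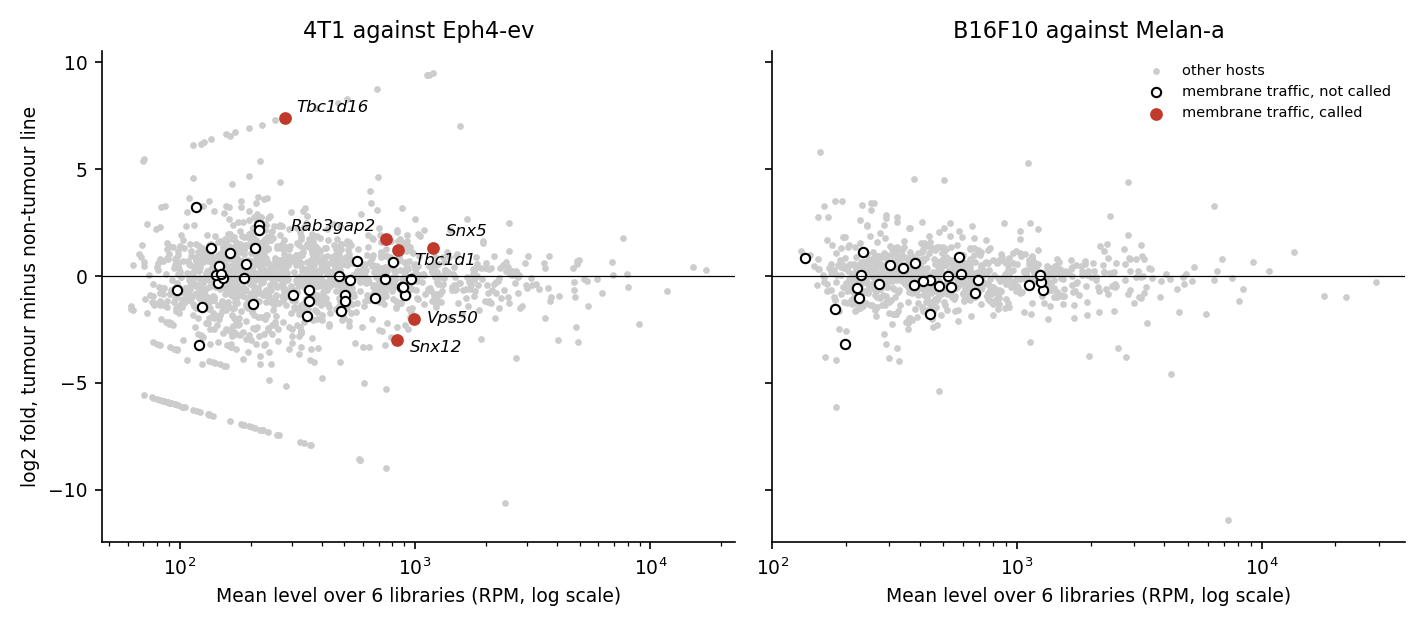
Log2 fold, tumour line minus non-tumour line (y axis), against the mean level over 6 libraries in RPM (x axis, log scale) for all tested hosts (grey), membrane traffic hosts (open circles) and called membrane traffic hosts (red). In the mammary pair 6 members are called, 4 above and 2 below 0, and in the melanocyte pair 0 are.

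Among the regulators that act on Rab GTPases, Tbc1d16 showed the clearest difference. It encodes a GTPase-activating protein for Rab4A, a Rab of endosomal recycling. Its rings had 7, 12 and 25 reads in the 4T1 libraries and 0 in each Eph4-ev library. Against a floor of 3 counts over the Eph4-ev libraries, that is at least 30.6-fold higher in 4T1 (edgeR adjusted p = 0.000957). This bound and those below take the reads of the other line as counted, without error. The call held under all 12 alternatives, with adjusted p up to 0.0233. With 0 reads in Eph4-ev, the gene passed the read filter through 4T1 alone, so only a higher call was possible. In the melanocyte pair the gene was read in both lines, with 3, 4 and 1 reads in B16F10 against 6, 0 and 17 in Melan-a, and the groups overlapped (log2 fold -1.05 ± 1.10, adjusted p = 0.667).

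Both Tbc1d16 rings contributed. The ring of exons 9 to 10 had 5, 8 and 20 reads in 4T1 and 0 in Eph4-ev (at least 23.0-fold higher, edgeR adjusted p = 0.0085), and stayed called under all 12 alternatives. That of exons 2 to 3, which holds the start codon, had 2, 4 and 5 reads against 0 (at least 7.66-fold, adjusted p = 0.0282). Its call was lost with no filter (0.240) and without Eph4-ev replicate 1 (0.124), 2 (0.135) or 3 (0.135). Without 4T1 replicate 1, 2 or 3, or after thinning, it was too low to be tested.

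Rab3gap2, the noncatalytic subunit of the Rab3 GTPase-activating complex, had 14, 22 and 62 reads in 4T1 against 20, 15 and 18 in Eph4-ev. In RPM every 4T1 library was above every Eph4-ev library (1176 ± 251 against 328 ± 65.1, SD, n = 3). The log2 fold was 1.73 ± 0.41 (edgeR adjusted p = 0.0103), and the call was lost without 4T1 replicate 3 (0.0707) or Eph4-ev replicate 2 (0.0873). A 281-base ring of exons 25 to 26 made up 87.4% of its reads, with 14, 21 and 61 in 4T1 compared with 16, 8 and 12 in Eph4-ev (log2 fold 2.15 ± 0.45, adjusted p = 0.0124). Without 4T1 replicate 3 its adjusted p was 0.0513, and without Eph4-ev replicate 2 it was 0.083. The same ring was rare in the melanocyte pair, with 1, 2 and 0 reads in B16F10 against 0, 3 and 0 in Melan-a.

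Tbc1d1 had 19, 24 and 48 reads in 4T1 against 25, 34 and 18 in Eph4-ev, or 1216 ± 139 against 473 ± 139 RPM (SD, n = 3), with no overlap. Its log2 fold of 1.21 ± 0.39 (edgeR adjusted p = 0.0427) is the least firm of the 6 calls. It was lost when any 1 of the 6 libraries was left out (adjusted p of 0.0767 to 0.182), with no filter (0.159) and by DESeq2 (0.0592). Most of the gene's 14 mammary rings were rare. The exon 2 ring, with the start codon, took 47.6% of its reads, at 17, 7 and 32 in 4T1 compared with 7, 11 and 6 in Eph4-ev (log2 fold 2.06 ± 0.58, adjusted p = 0.0331). Its call was lost with no filter (0.167) and without any 1 library but 4T1 replicate 2 (0.097 to 0.135). That ring had 0 reads in all 6 melanocyte libraries, where Tbc1d1 itself had 6, 4 and 3 reads in B16F10 against 3, 5 and 10 in Melan-a from other rings.

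Tbc1d14, a Rab11 effector that acts in autophagy, had uneven 4T1 libraries (2, 23 and 61 reads, against 51, 48 and 62) and a log2 fold of -0.13 ± 0.49 (edgeR adjusted p = 0.891). Its level in B16F10 and Melan-a also overlapped (20, 15 and 7 reads against 12, 11 and 9; log2 fold 0.90 ± 0.48, adjusted p = 0.313).

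**Figure D3:**
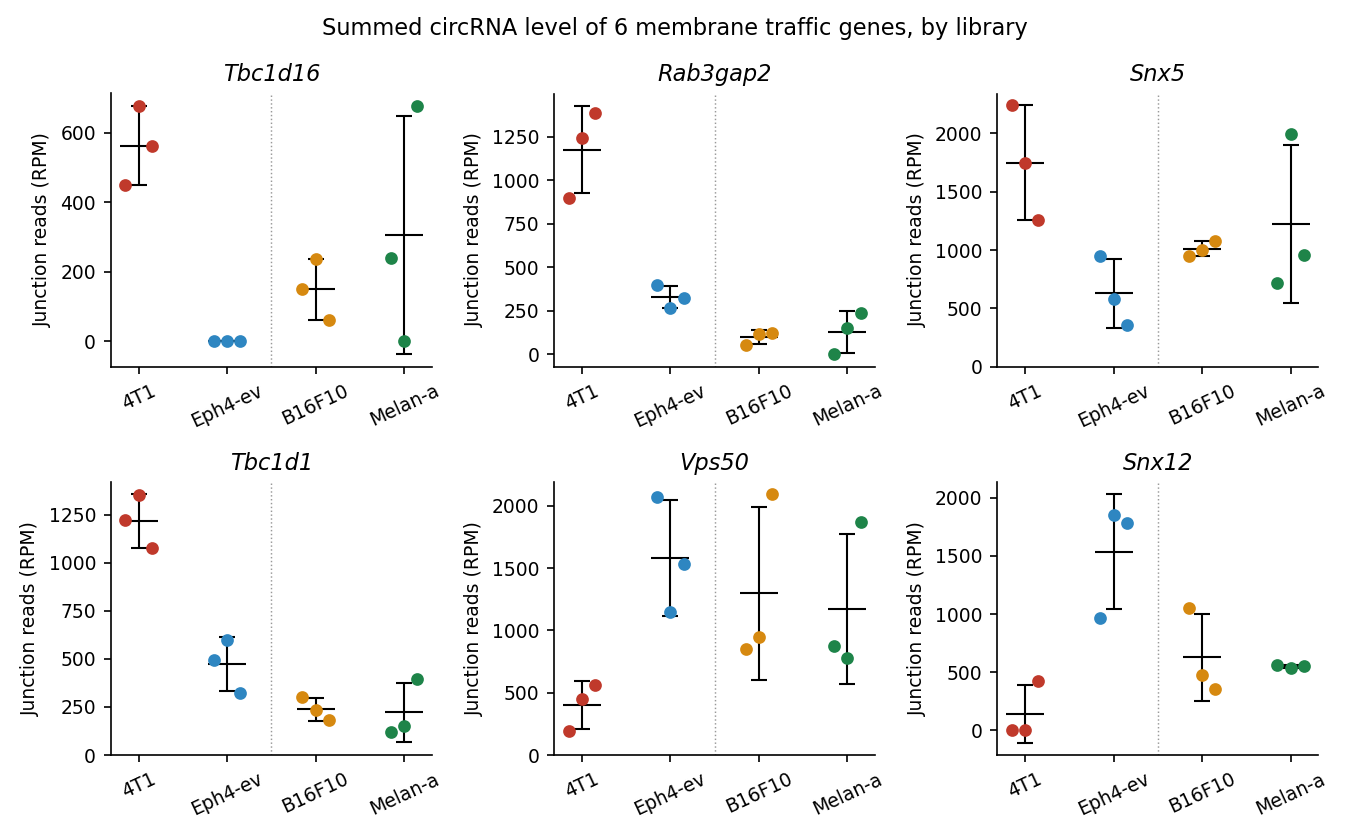
Summed circRNA level in RPM (y axis) of the 6 membrane traffic hosts called in 4T1 against Eph4-ev, for each library of the 4 lines (x axis), with the mean (wide bar) and 1 SD (whiskers, n = 3). The dotted line separates the tables, which were scaled separately. Tbc1d16 has 0 reads in Eph4-ev, and Vps50 and Snx12 are low in 4T1 while their B16F10 and Melan-a libraries overlap.

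Sorting nexins went both ways. Snx12, which consists of little more than a phosphoinositide-binding PX domain, was read through 1 ring alone, that of exons 2 to 4 (312 bases). It had 0, 0 and 19 reads in the 4T1 libraries and 49, 105 and 99 in Eph4-ev, so every 4T1 library lay below every Eph4-ev library, and all 4T1 reads came from the deepest library. The log2 fold was -2.97 ± 0.66 (edgeR adjusted p = 0.00613) as a host and -3.06 ± 0.74 (adjusted p = 0.0186) as a ring. DESeq2 did not call either (0.118 and 0.111), and neither passed without Eph4-ev replicate 2 (0.117 and 0.101). Without 4T1 replicate 3 the 4T1 side holds 0 reads, and the ring was called again (0.000986). In the melanocyte pair the ring had 21, 8 and 6 reads in B16F10 against 14, 18 and 14 in Melan-a (log2 fold 0.12 ± 0.49, adjusted p = 0.926).

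Snx5, part of the sorting nexin dimers that form retrieval tubules on endosomes, was higher in 4T1. It had 35, 31 and 56 reads there and 48, 33 and 20 in Eph4-ev, or 1750 ± 496 against 630 ± 297 RPM (SD, n = 3), with no overlap between the groups. The log2 fold was 1.29 ± 0.38 (edgeR adjusted p = 0.0312). It was lost without 4T1 replicate 1 (0.109) or 2 (0.0751) and without Eph4-ev replicate 2 (0.179) or 3 (0.135). The leading rings of Snx5 share the splice site at the end of exon 8 and differ in the exon they reach back to, which is shown by their common lower-case side.
Snx5 exons 5 to 8, chr2:144255340-144257993, minus strand: cacagtcatcaaaaaTGAGTATCTCGCTGT
Snx5 exons 6 to 8, chr2:144255340-144257195, minus strand: cacagtcatcaaaaaCTAAGTGTTAGACGG
The ring of exons 6 to 8 had 16, 5 and 26 reads in 4T1 against 12, 0 and 0 in Eph4-ev (log2 fold 2.76 ± 1.13, edgeR adjusted p = 0.125), and that of exons 5 to 8 had 14, 11 and 6 against 13, 11 and 10 (1.02 ± 0.69, adjusted p = 0.368). Neither passed the test. Between B16F10 and Melan-a, Snx5 had 19, 17 and 18 reads against 18, 67 and 24, and the Melan-a libraries spread on both sides of the B16F10 ones (log2 fold -0.40 ± 0.41, adjusted p = 0.647).

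The other 6 sorting nexins tested in the mammary pair did not pass. Snx9, which acts with dynamin in endocytosis, had 11, 11 and 31 reads in 4T1 against 49, 76 and 62 in Eph4-ev, with every 4T1 library lower in RPM (log2 fold -0.89 ± 0.35, edgeR adjusted p = 0.0956). Snx6, a partner of retrieval tubules like Snx5, had 6, 2 and 26 against 5, 2 and 5 (2.17 ± 0.85, adjusted p = 0.0947). For Snx27, which links retromer to recycling cargo, the groups overlapped (-0.53 ± 0.36, adjusted p = 0.359). Snx7 had 0 reads in 4T1 against 4, 2 and 6 in Eph4-ev, which is at least 1.91-fold lower and too few to test.

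Of the tethering complexes, Vps50 was the host that passed the test. This subunit, which sets EARP apart from the Golgi-directed GARP complex, had 3, 8 and 25 reads in 4T1 against 105, 65 and 85 in Eph4-ev. In RPM that is 401 ± 189 against 1584 ± 465 (SD, n = 3), with the groups well apart. The log2 fold was -1.99 ± 0.41 (edgeR adjusted p = 0.00405), and the call held under all 12 alternatives (adjusted p up to 0.0321). In B16F10 and Melan-a the gene had 17, 16 and 35 against 22, 26 and 47 reads, with overlapping levels (log2 fold 0.05 ± 0.44, adjusted p = 0.971).

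Vps50 is spread over 14 rings in the mammary table, of which 13 had reads in Eph4-ev and 6 in 4T1. Its most read ring, exons 13 to 16, had 3, 7 and 4 reads in 4T1 against 31, 22 and 31 in Eph4-ev (log2 fold -1.56 ± 0.63, edgeR adjusted p = 0.119). Those of exons 3 to 9 (18, 10 and 24 reads in Eph4-ev) and exons 13 to 21 (10, 6 and 7) had 0 reads in 4T1 and were called lower, by at least 8.30-fold (adjusted p = 0.0153) and 3.67-fold (adjusted p = 0.0428). The first lost its call without Eph4-ev replicate 2 (0.0656) or 3 (0.074). The second lost it without 4T1 replicate 1 (0.0882), 2 (0.0955) or 3 (0.122) or Eph4-ev replicate 2 (0.138), under total reads (0.0504), with no filter (0.153) and by DESeq2 (0.0902). After thinning, or without Eph4-ev replicate 1 or 3, the second was too low to be tested. Exons 18 to 20 gave a further ring with 6 reads in each Eph4-ev library and 0 in 4T1. It was 2.87-fold lower against a floor of 3 counts in 4T1 and missed the threshold (adjusted p = 0.0531). In the melanocyte lines the exons 13 to 21 ring had 4, 3 and 6 reads in B16F10 against 1, 2 and 0 in Melan-a, and that of exons 13 to 16 had 4, 0 and 7 against 12, 16 and 12.

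The other Vps genes tested did not pass between the mammary lines as hosts. Vps13b, mutated in Cohen syndrome in humans, had the most rings of any member, 18 in the mammary and 25 in the melanocyte table, and its summed level overlapped (log2 fold -0.50 ± 0.36, edgeR adjusted p = 0.398). Within it, the ring of exons 31 to 33 had 1 read in each 4T1 library and 17, 22 and 16 in Eph4-ev. That is 8.77-fold higher in Eph4-ev by pooled reads (95% exact interval 2.85 to 43.8; adjusted p = 0.0257). It was not called with no filter (0.0525) or without 4T1 replicate 3 (0.0729) or Eph4-ev replicate 1 (0.0961), 2 (0.133) or 3 (0.0855). After thinning it was too low to be tested. Vps13d, a relative of Vps13b, overlapped as a host (1.30 ± 0.79, adjusted p = 0.289), but its large exon 19, which closes on itself into a ring of 2214 bases, had 2, 2 and 21 reads in 4T1 and 0 in Eph4-ev (at least 17.4-fold, adjusted p = 0.0225). Of those reads 21 came from the deepest library, without which the ring was too low to be tested, as it was after thinning. The call was lost without Eph4-ev replicate 1 (0.0651), 2 (0.101) or 3 (0.0855).
Vps13b exons 31 to 33, chr15:35668701-35674952, plus strand: accaaggctacagagGAAAGCCTTAAACTT
Vps13d exon 19, chr4:145154569-145156782, minus strand: tgcatagaggccaagAAGACTCTAGGAGGA
Both lines of the melanocyte pair had reads of these rings, with 1, 3 and 4 in B16F10 and 1, 10 and 7 in Melan-a for Vps13b, and 5, 4 and 2 against 11, 6 and 3 for Vps13d. Neither passed there (adjusted p = 0.821 and 0.884).

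Vps33a, a subunit of the lysosome-directed HOPS complex, had 0 reads in 4T1 against 4, 14 and 11 in Eph4-ev, at least 4.63-fold lower in 4T1. It did not reach the filter for a test. B16F10 and Melan-a had 2, 7 and 4 reads against 8, 11 and 6 (log2 fold -0.35 ± 0.69, edgeR adjusted p = 0.831).

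The exocyst tethers secretory vesicles at the plasma membrane. Its subunit Exoc4 had 5, 4 and 24 reads in 4T1 against 30, 39 and 37 in Eph4-ev, with lower RPM in every 4T1 library but no call (log2 fold -0.87 ± 0.49, edgeR adjusted p = 0.256). A 235-base ring of its exons 8 to 9 was called: 0 reads in 4T1 against 16, 20 and 20 in Eph4-ev, at least 8.93-fold lower in 4T1 (adjusted p = 0.0127). Without Eph4-ev replicate 2 its adjusted p was 0.0829, and after thinning it was too low to be tested. Exoc6b had 0, 8 and 12 reads in 4T1 against 38, 40 and 40 in Eph4-ev (-1.65 ± 0.63, adjusted p = 0.0867), and 3, 6 and 2 in B16F10 against 25, 13 and 16 in Melan-a (-1.75 ± 0.61, adjusted p = 0.0975). In both lineages the tumour libraries lay below the non-tumour libraries, and neither difference passed the test. With no filter the mammary one did (0.0256), and without Melan-a replicate 2 the melanocyte one did (0.0402).
Exoc4 exons 8 to 9, chr6:33438380-33442039, plus strand: gtggagaactccaggATGCTGTTGACTGAG

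The TRAPP complexes tether vesicles at the Golgi and activate Rab GTPases. Trappc9, specific to the TRAPPII form, was the host with a called ring in each lineage, though not the same ring. The leading rings begin with exon 5 and close after exon 7 or exon 8, so their capitals are identical.
Trappc9 exons 5 to 7, chr15:73012806-73031643, minus strand: aggacttcagcaaagGTGCTCTCACCACCA
Trappc9 exons 5 to 8, chr15:72999972-73031643, minus strand: tcctgtctgaccaggGTGCTCTCACCACCA
The shorter ring had 0 reads in 4T1 against 7, 6 and 13 in Eph4-ev, at least 4.15-fold lower in 4T1 (edgeR adjusted p = 0.0386), while the longer had 1, 3 and 16 against 16, 8 and 16 (log2 fold -0.37 ± 0.76, adjusted p = 0.798). The call on the shorter was lost with no filter (0.112), by DESeq2 (0.0668) and without 4T1 replicate 1 (0.0765), 2 (0.0806) or 3 (0.105) or Eph4-ev replicate 2 (0.129). After thinning, or without Eph4-ev replicate 1 or 3, the shorter was too low to be tested. In the melanocyte pair it was the longer ring that passed, with 3, 5 and 5 reads in B16F10 against 14, 40 and 16 in Melan-a and no overlap (-1.77 ± 0.54, adjusted p = 0.0466). The shorter had 3, 3 and 4 against 5, 10 and 8 (-0.59 ± 0.76, adjusted p = 0.702). The melanocyte call was not firm: it held under 1 of 12 alternatives, and was lost by DESeq2 (0.125) and without each single library in turn (0.0642 to 0.214). Whether the rings of a gene differ from each other was not tested. Summed over its rings, Trappc9 passed in neither lineage (adjusted p = 0.859 and 0.36), and Trappc11, of the TRAPPIII form, did not either (0.55 and 0.829).

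The Rab GTPases tested did not pass as hosts in either lineage. Rab2a, of traffic between the endoplasmic reticulum and the Golgi, had 14, 17 and 53 reads in 4T1 against 23, 26 and 48 in Eph4-ev, higher in each 4T1 library in RPM (log2 fold 0.67 ± 0.40, edgeR adjusted p = 0.289). Rab11a, of the recycling endosome, had 0, 3 and 11 against 25, 18 and 47 (-1.88 ± 0.74, adjusted p = 0.0926). Its effector Rab11fip3 had 0, 0 and 2 against 11, 16 and 10, a pooled 8.85-fold higher level in Eph4-ev (95% exact interval 2.28 to 75.8) that missed the threshold (adjusted p = 0.0658). Rab22a, also endosomal, had 5, 8 and 26 against 36, 62 and 49 (-1.05 ± 0.43, adjusted p = 0.105).
Rab22a exons 3 to 6, chr2:173688147-173695999, plus strand: tctttatagaaattaGGCATCTTTTATGAC
Rab22a exons 4 to 6, chr2:173695110-173695999, plus strand: tctttatagaaattaTTTCGTGCATTGGCA
Rab22a rings share the end of exon 6. The ring that includes exon 3 had 2, 6 and 8 reads in 4T1 against 26, 44 and 31 in Eph4-ev (log2 fold -1.75 ± 0.55, edgeR adjusted p = 0.0475), and that without it had 3, 2 and 18 against 10, 18 and 18 (-0.33 ± 0.68, adjusted p = 0.801). The first was not called after thinning to equal depth (0.134), under total reads (0.083), with no filter (0.0576) or by DESeq2 (0.0582). Among the fits that left out 1 library, it stayed called only in the fit lacking 4T1 replicate 2 (0.0816 to 0.214 in the others). The call thus held under 2 of 12 alternatives. Rab28 had 0 reads in 4T1 against 3, 6 and 3 in Eph4-ev, which is 1.91-fold lower against a floor of 3 counts in 4T1.

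Hosts of the early secretory pathway did not pass in either lineage. Sec63, of the translocation channel of the endoplasmic reticulum, had overlapping levels as a host (log2 fold 0.02 ± 0.61, edgeR adjusted p = 0.986), a sum over 2 mammary rings that overlap in exons 3 and 4.
Sec63 exons 2 to 4, chr10:42783442-42791291, plus strand: aaaagcatatgcagcAGCAAATTCGATTAA
Sec63 exons 3 to 7, chr10:42789300-42797733, plus strand: cttcctgttgtggtgGAAAATAGTTCTGCT
The exons 2 to 4 ring had 1, 0 and 0 reads in 4T1 against 26, 16 and 6 in Eph4-ev, 23.0-fold higher in Eph4-ev by pooled reads (95% exact interval 3.93 to 926; edgeR adjusted p = 0.0386). The other ring, exons 3 to 7, numbered 0, 11 and 34 reads against 9, 4 and 14 (log2 fold 1.34 ± 0.90, adjusted p = 0.362). The host sum thus joins a called ring with 1 that was not called. The call was lost under total reads (0.0514) and without 4T1 replicate 2 (0.0806) or 3 (0.108) or Eph4-ev replicate 3 (0.0556). After thinning, or without Eph4-ev replicate 1 or 2, the exons 2 to 4 ring was too low to be tested. In the melanocyte pair the levels of both rings overlapped, with 3, 4 and 2 against 4, 7 and 3 reads for exons 2 to 4 and 5, 5 and 7 against 4, 9 and 15 for exons 3 to 7. Sec31a, an outer subunit of the COPII coat, had 4, 3 and 10 reads in 4T1 against 1, 0 and 2 in Eph4-ev (adjusted p = 0.0788). Cog5, of the Golgi tether COG, had 1, 4 and 36 against 6, 0 and 5 (log2 fold 2.38 ± 1.03, adjusted p = 0.126), with the deepest 4T1 library well above the others. Without that library Cog5 had a log2 fold of 0.81 (adjusted p = 0.819).

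**Figure D4:**
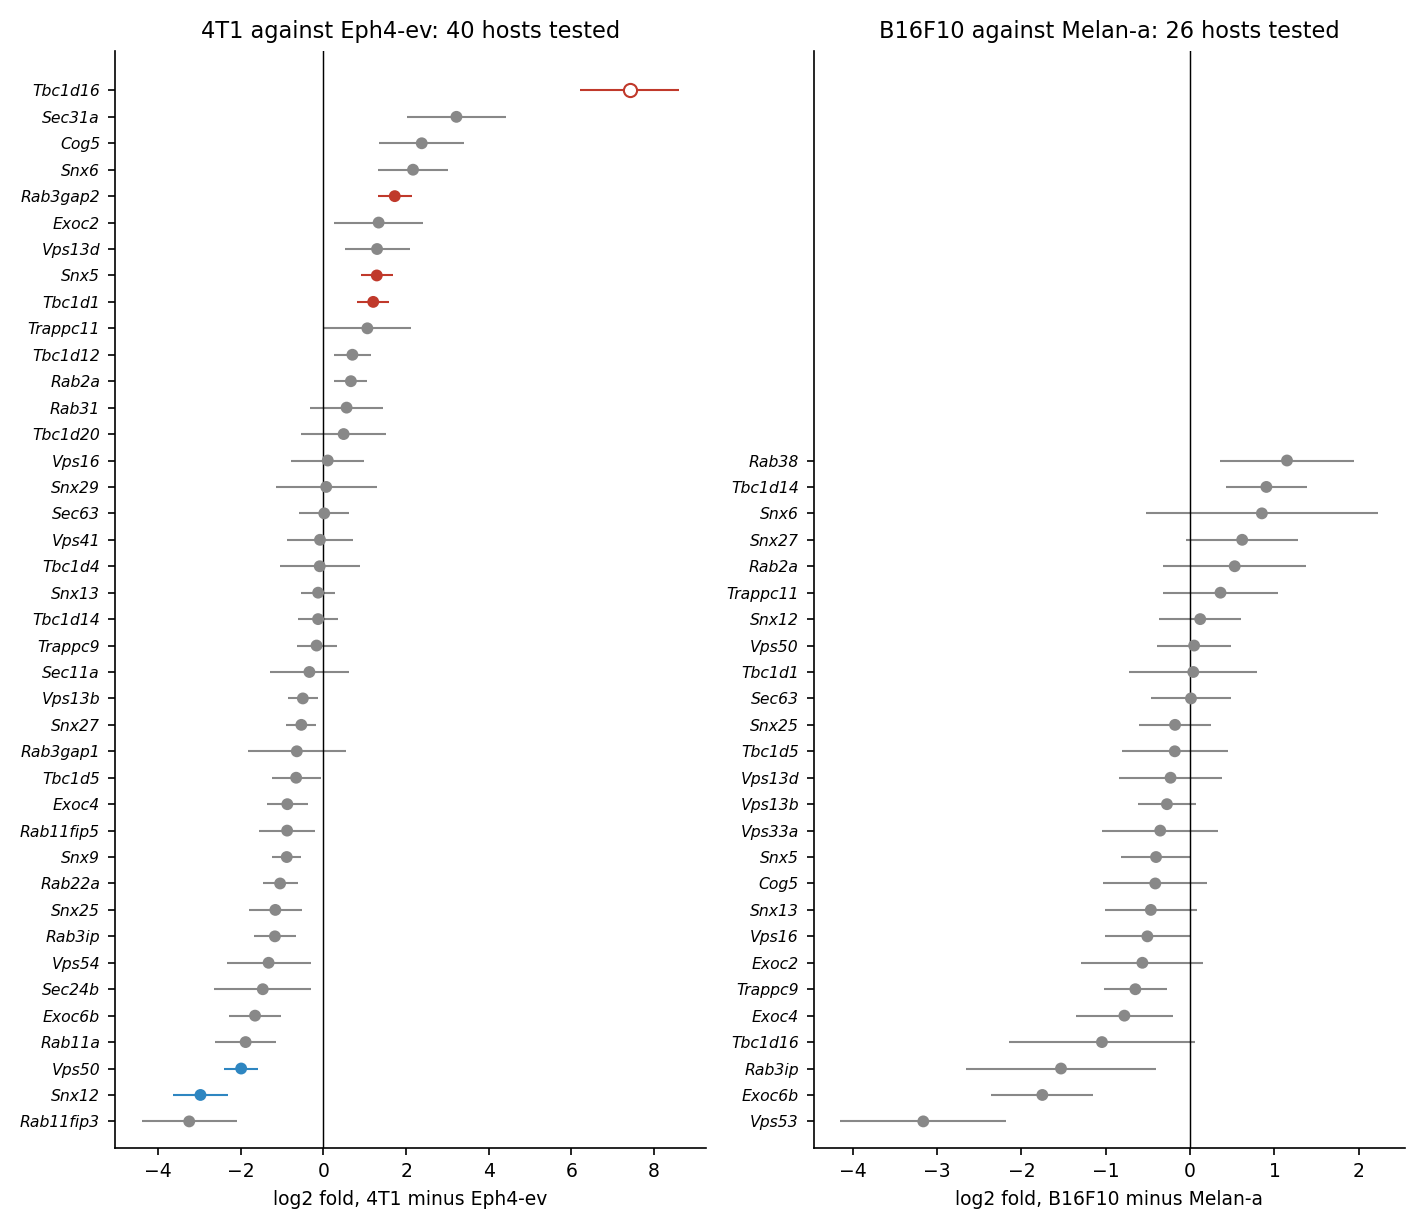
Log2 fold, tumour minus non-tumour line (x axis), with 1 SE either side, for every membrane traffic host tested in the mammary (left, 40 hosts) and the melanocyte pair (right, 26 hosts). Red and blue mark hosts called higher and lower, grey those not called, and the open circle marks Tbc1d16, whose fitted fold rests on 0 reads in Eph4-ev. The 6 coloured hosts are all on the left.

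Counted by ring, 58 of the 266 mammary member circRNAs could be tested, and edgeR called 5 higher and 8 lower in 4T1. Over all 1869 circRNAs tested, 5.99% were called higher and 11.4% lower. DESeq2 called 5 and 4. With total reads alone, which moved the median log2 fold of all circRNAs from -0.22 to -0.01 and the higher share of all calls from 34.5% to 44.7%, the counts were 5 and 5. The members' median moved with it, from -0.33 to -0.09. Called rings with 0 reads in a line passed the read filter through the other line alone, so each could be called in that direction only. They are both Tbc1d16 rings, Vps13d exon 19, Exoc4 exons 8 to 9, Vps50 exons 3 to 9 and 13 to 21, and Trappc9 exons 5 to 7. As reads in 1 line alone (at least 2 in each of its libraries and 0 in the other line), 4T1 held 3 of 266 member rings and Eph4-ev held 10, beside 0.547% and 3.5% of all single-host circRNAs. The Eph4-ev libraries are deeper, so the counts are not like for like. The 3 are the rings of Tbc1d16 and Vps13d described above. Among the 10 in Eph4-ev, Rab11fip3 exons 3 to 5 had 9, 6 and 5 reads, Vps33a exons 5 to 6 had 4, 11 and 11, Vps54 exons 2 to 7 had 6, 12 and 5, and Tbc1d12 exons 2 to 5 had 4, 2 and 6. The rule itself made these rings lower in 4T1, so their reads are a description and not a test. Snx6, Rab11a, Rab11fip3, Rab27a, Vps54 and Tbc1d12 are named here after their values were seen.

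**Figure D5:**
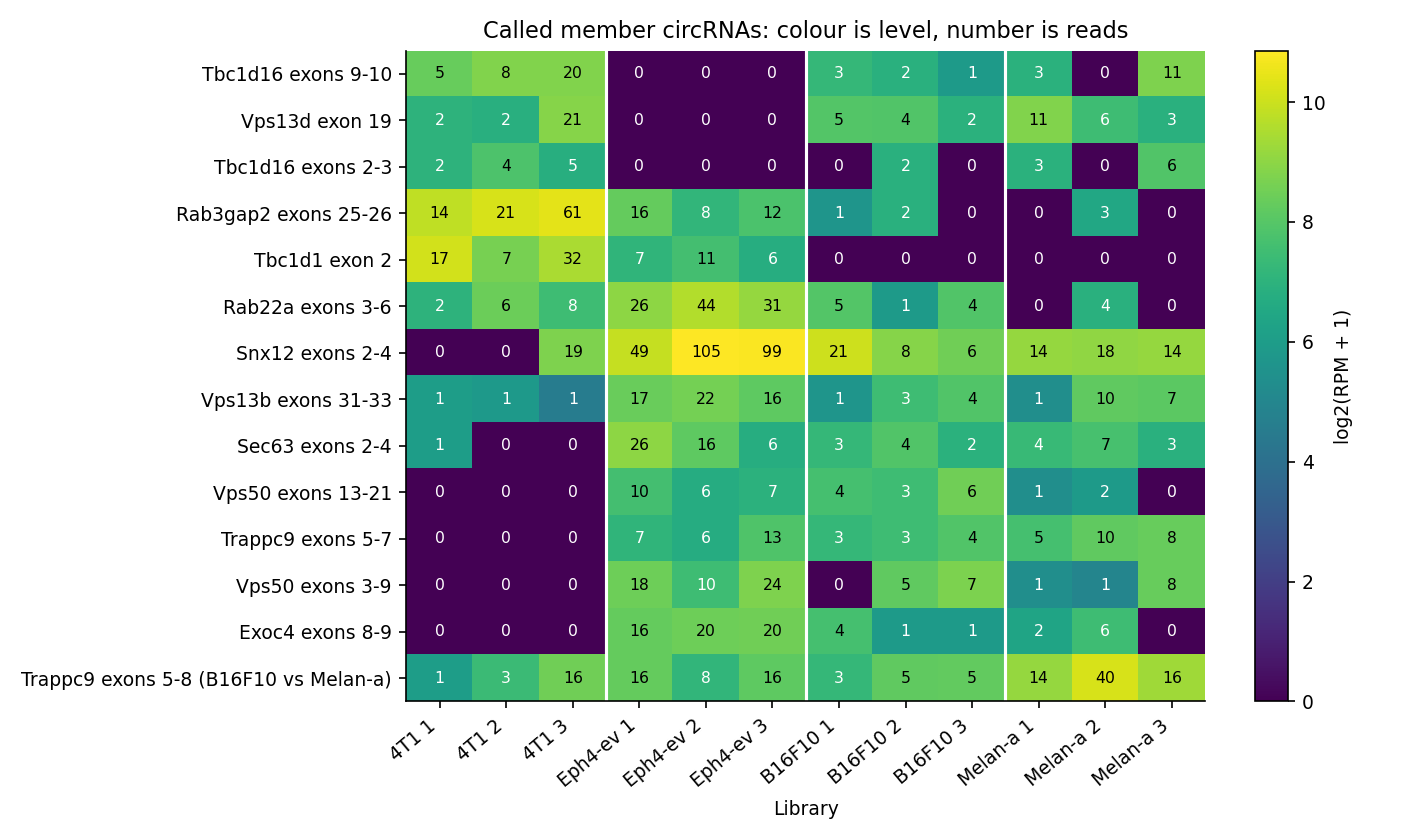
Reads (numbers) and level as log2(RPM + 1) (colour) of the 14 called member circRNAs (rows) in the 12 libraries (columns). The first 13 rows were called in 4T1 against Eph4-ev and the last in B16F10 against Melan-a. Dark cells are libraries with 0 reads, such as all Eph4-ev libraries for both Tbc1d16 rings and all 4T1 libraries for Exoc4 exons 8 to 9.

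In B16F10 against Melan-a, 85 member hosts had reads and 26 could be tested. edgeR called 0 higher and 0 lower, with 2 at an unadjusted p under 0.05 (Vps53 and Exoc6b, both lower in B16F10), and DESeq2 called 0. The 0 lower calls hold for the set without Vps45, which was lower in B16F10 (log2 fold -4.60, edgeR adjusted p = 8.88e-06). Of all 898 hosts tested, 2.78% were called higher and 4.34% lower, so few calls would fall among 26 hosts at that rate. The members' median log2 fold was -0.25, beside -0.00 over all hosts, with 16 of 26 negative (61.5%, beside 50% over all hosts). Scaling by total reads alone moved the median of all hosts to 0.11 and the higher share of all calls from 39.1% to 52.9%. By ring, 22 of 262 were tested, with 0 higher and 1 lower (Trappc9 exons 5 to 8), beside 5.03% and 5.84% of all circRNAs, and 2 at an unadjusted p under 0.05, both lower. DESeq2 called 0.

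Vps53, a core subunit of both GARP and EARP, had 1, 1 and 0 reads in B16F10 against 9, 8 and 12 in Melan-a. Pooled, its level was 9.28-fold higher in Melan-a (95% exact interval 2.35 to 80.3; edgeR adjusted p = 0.0682), and the groups did not overlap. Its ring of exons 14 to 17 (chr11:76076435-76082684) was the 1 member ring found only in Melan-a, with 9, 5 and 12 reads, while 0 were found only in B16F10. The same rule took 0.505% of all single-host circRNAs for Melan-a and 0.367% for B16F10. The Exoc6b ring of exons 3 to 6 had 0, 3 and 0 reads against 17, 8 and 16 (pooled 8.75-fold higher in Melan-a, 95% exact interval 2.79 to 44.2; adjusted p = 0.0526). Rab38, which sorts enzymes to melanosomes, had reads in the melanocyte table only, with 7, 4 and 7 in B16F10 and 1, 8 and 3 in Melan-a through exon 2 (log2 fold 1.15 ± 0.80, adjusted p = 0.453). Rab27a, which ties melanosomes to the cell cortex, had 2, 3 and 0 against 0, 6 and 0, too few to test.

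The difference between the lineages was tested directly, as the melanocyte fold minus the mammary fold. Of 32 member hosts tested, 3 were called (Tbc1d16, Snx12 and Vps50), beside 11.7% of all 1204 hosts. For Snx12 the difference was 3.21 ± 0.89 on the log2 scale (edgeR adjusted p = 0.0174) and for Vps50 2.09 ± 0.64 (adjusted p = 0.0321). In both, the mammary fold was negative and the melanocyte fold close to 0. For Tbc1d16 (adjusted p = 0.00266) the fitted size rests on 0 reads in Eph4-ev. Snx12 lost its call without B16F10 replicate 1 (0.101), and Vps50 without 4T1 replicate 1 (0.0518), Eph4-ev replicate 1 (0.0902), Melan-a replicate 1 (0.0575) or B16F10 replicate 3 (0.15). Snx5 (-1.60 ± 0.59, adjusted p = 0.0734), Rab3gap2 (-2.18 ± 1.06, adjusted p = 0.197) and Tbc1d1 (adjusted p = 0.493), higher in 4T1, were not shown to differ between lineages.

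The structure of the member rings was set beside that of all single-host circRNAs. All 266 mammary and all 262 melanocyte rings began and ended at exon boundaries of a single annotated transcript, as 95.8% and 96.4% of all single-host circRNAs did. Their median length was 465 bases over 3 exons in the mammary and 496 bases over 4 exons in the melanocyte table. For all single-host circRNAs placed on a transcript the medians were 456 and 494 bases, with 3 exons in each table. Rings wholly within coding sequence made up 89.1% and 91.6% of members, beside 82.7% and 83.1% of all. A start codon lay in 10.5% and 8.02%, beside 15.7% and 15.3%. The first exon, which has no upstream splice site, was used by 0% of members, beside 0.257% and 0.286% of all. A total length divisible by 3, which would keep the frame around the ring, was found for 36.8% and 37.4%, beside 37.8% and 37.7% of all. These shares are descriptions without a test, and rings of a gene share exons.

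Genes of the same pathways that the name rule does not take were read from 5 lists (coats and adaptors, SNAREs and fusion factors, golgins and tethers, regulators and effectors of Rab and Arf GTPases, and endosomal factors of the ESCRT, WASH and phosphoinositide systems). Of their 275 genes, 129 had reads in the mammary table and 56 were tested, with 4 higher and 6 lower in 4T1, beside 6.86% and 10.6% of all hosts tested. The lowest adjusted p was that of Uvrag, which acts in endosome maturation and autophagy, with 25, 51 and 113 reads in 4T1 against 23, 21 and 35 in Eph4-ev (log2 fold 2.14 ± 0.34, edgeR adjusted p = 0.000487). Also higher were Itsn2, Rabgap1l and Agap1, and lower were Ap3b1, Cux1, Usp6nl, Cyth3, Mtmr3 and Nbea. In the melanocyte pair 40 of 124 were tested, with Dennd1a and Zfyve9 higher and Agap1 and Wdfy3 lower in B16F10, beside 2.78% and 4.34% of all hosts.  Agap1, a GTPase-activating protein for Arf, was thus called in both, higher in 4T1 (0.95 ± 0.23, adjusted p = 0.0104) and lower in B16F10 (-1.03 ± 0.27, adjusted p = 0.041).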

How the data were processed

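Total RNA of 12 libraries (4 lines, 3 each) was treated with RNase R and sequenced. Per the labels' protocols, circRNAs were called with CIRI2 on BWA alignments and with CIRCexplorer2 on TopHat alignments, and the submitters' processing notes name mm10. The sources used here give neither the filters, nor the gene annotation, nor how reads of both callers were combined. The deposited tables, 1 per lineage, hold raw counts of back-spliced junction reads per circRNA. The RPM values deposited by the authors equal each count divided by its column total, so reads recovered from them matched the counts in 100% of values (tolerance 0.01), and RPM was scaled separately in each table.

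Counts were summed per host and tested with edgeR 4.0.16 in R 4.3.3 by the quasi-likelihood F-test with TMM factors. P-values were adjusted by Benjamini and Hochberg over all features, and calls took an adjusted p under 0.05. The read filter was filterByExpr, set to 5 for the count and 10 for the total. It scales the 5 to library depth, so fewer reads sufficed in the shallower 4T1 libraries than in Eph4-ev. Sec31a was tested on 4, 3 and 10 reads in 4T1 against 1, 0 and 2. Vps33a, with 4, 14 and 11 in Eph4-ev and 0 in 4T1, was not. With no filter, member hosts called in 4T1 were 3 higher and 6 lower (4 and 2 with it), and rings 4 and 4 (5 and 8). The 6 libraries of a lineage entered each fit, and the difference between lineages was fitted over 12 libraries on the 8928 circRNAs in both tables, 10 of which had another host name in each and took the mammary one. Alternatives were RLE factors, total reads alone, no filter, DESeq2 1.42.0, a replicate block, thinning to 15572 (mammary) or 16697 (melanocyte) reads, and leaving out each library. The lists of lost calls in the Results leave out the replicate block, and losses with it are given in the last section. On simulated counts the mammary fit recovered 14% of 2-fold and 84% of 4-fold changes (1552 genes) and the melanocyte fit 25.3% and 88.9% (840 genes). The changes were planted in hosts with a mean of at least 10 reads per library, with the same dispersion set for every host. Recovery for hosts with fewer reads, among them tested members such as Sec31a, was not measured. Exons and junctions came from GENCODE M21. Where a line had 0 reads, a bound uses a floor of 3 counts over its libraries and takes the other line's reads as counted. With 1 to 3 counts the pooled ratio has a 95% exact interval. Reads carry no molecular identifiers, so floors and intervals cover counting error only, and a floor covers it only in the line with 0 reads. Replicate pairs differed by more than sampling noise (chi-square per degree of freedom 1.69 to 5.06). The named hosts were those called, the 5 highest per line, the smallest p per name family and those read in 1 line alone. Members and lists were chosen with earlier results of these data known.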

Additional observations from a re-analysis of the deposited data

Results flagged for a closer look

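The fold in B16F10 against Melan-a minus that in 4T1 against Eph4-ev differed from 0 by edgeR's test of the difference itself for 3 hosts. It was 3.21 (log2) for Snx12 (adjusted p = 0.0174), which was lower in 4T1 and overlapped between B16F10 and Melan-a. For Vps50 it was 2.09 (adjusted p = 0.0321), with the same arrangement. For Tbc1d16 it was -7.97 (adjusted p = 0.00266), a fitted value on 0 reads in Eph4-ev and so no bound. That call held under all 17 alternatives, while Snx12 lost its call without B16F10 replicate 1 (0.101) and Vps50 without 4T1 replicate 1 (0.0518), Eph4-ev replicate 1 (0.0902), Melan-a replicate 1 (0.0575) or B16F10 replicate 3 (0.15).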

How the results depend on the processing

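Depth limits these counts: a read is worth 64.2 RPM in the shallowest 4T1 library, and 40 of 95 mammary and 26 of 85 melanocyte hosts could be tested. In 4T1 against Eph4-ev, hosts higher (4) numbered 1 to 3 with 1 library left out, and hosts lower (2) numbered 1 to 3, or 6 with no filter and 1 by DESeq2. CircRNAs higher (5) numbered 3 after thinning and 1 to 4 with 1 library left out. CircRNAs lower (8) numbered 5 with total reads alone, 4 with no filter, 4 by DESeq2, 2 after thinning and 0 to 5 with 1 library left out (0 without Eph4-ev replicate 2). In B16F10 against Melan-a, hosts lower (0) numbered 0 to 1 with 1 library left out (1 without Melan-a replicate 2), and circRNAs lower (1) numbered 2 with RLE factors, 0 with total reads alone, 0 with no filter, 0 by DESeq2, 0 after thinning and 0 to 2 with 1 library left out. Hosts that differed between lineages (3) numbered 2 to 4. The causes were not tested.

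Without its most abundant member, the share of reads was 1.75% in 4T1, 1.91% in Eph4-ev, 1.497% in B16F10 and 1.60% in Melan-a. With at least 2 reads, a library held 71 member circRNAs in 4T1, 125 in Eph4-ev, 66 in B16F10 and 83.3 in Melan-a. Thinned Eph4-ev libraries held 105 with at least 1 read.

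Uncalled folds near 0 changed sign. Sec63 in the mammary pair was -0.011 with RLE factors, -0.19 with no filter, -0.049 by DESeq2, -0.14 after thinning and -0.66 to 0.42 with 1 library left out. On leaving out 1 library, Tbc1d14 spanned -0.69 to 0.27 and Trappc11 -0.0018 to 1.77 in the mammary pair. In the melanocyte pair Cog5 spanned -0.69 to 0.0026, Exoc4 -1.09 to 0.19, Sec63 -0.23 to 0.33, Snx12 -0.43 to 0.44, Snx5 -0.67 to 0.20, Tbc1d1 -0.25 to 0.25, Vps13d -0.53 to 0.48, Vps33a -0.88 to 0.11 and Vps50 -0.42 to 0.53.

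Same-numbered libraries correlated at -0.018 to 0.089 in 6 pairs. In the melanocyte pair they correlated at 0.026 to 0.089, and other-numbered libraries lower, at -0.069 to 0.019. In the mammary pair the ranges overlapped, at -0.018 to 0.016 for the same number and -0.031 to 0.018 for other numbers. These values do not settle whether replicate numbers pair the libraries. With the replicate block, 3 hosts were higher and 2 lower in 4T1, 3 circRNAs higher and 3 lower, and 0 circRNAs lower in B16F10. With it, adjusted p was 0.0514 for Tbc1d1 as a host, 0.0574 for Vps13d exon 19, 0.0656 for Sec63 exons 2 to 4, 0.0751 for Tbc1d1 exon 2, 0.106 for Rab22a exons 3 to 6 and for Vps13b exons 31 to 33, 0.156 for Trappc9 exons 5 to 7, 0.193 for Tbc1d16 exons 2 to 3, 0.201 for Vps50 exons 13 to 21 and 0.0556 for Trappc9 exons 5 to 8 in the melanocyte pair, which are called without the block. Sec63 as a host had a log2 fold of -0.11 with it.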
